A study of Homo sapiens with 8 samples.

Results

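Semaphorins, ephrins, SLIT proteins and netrins are ligands first known for steering growing axons, and plexins, neuropilins, Eph receptors, ROBO and UNC5 proteins are the receptors that read them. Most of these receptors act on small GTPases and so change the cytoskeleton and the adhesion of the cell. The same genes are active in epithelia, vessels and tumours, where they steer cell migration and the segregation of neighbouring cells. The genes were taken by symbol: every gene that a probe set of the array names alone and whose symbol belongs to one of these families. This gave 67 genes among 19777 measured, 35 ligands and 32 receptors. Each gene is represented by whichever of its probe sets had the highest average signal; the 67 genes together had 168 probe sets.

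The cells were MDA-MB-231, an established human line from a metastatic breast cancer that carries mutant p53. All cells expressed, from a retroviral construct, a short-hairpin RNA against GFP, which serves as a control hairpin, and were kept without serum for 24 h. One group was left untreated and the other received TGFβ, labelled as 5 µg/ml for 3 h. Each group had 4 biological replicates, lettered A to D, on 1 array each. The labels do not say whether the line was a pool or a clone, or whether cultures were separate, so the p-values speak only of how far these arrays differed from each other. The series asks which genes TGFβ and mutant p53 control jointly; only cells with the control hairpin are described, and p53-depleted cells were not analysed here. Values are log2 RMA signals, which give a probe set's hybridisation and do not rank one gene's level against another's.

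Array medians lay between 4.62 and 4.66, and the number of arrays limits the precision. On treated replicate A the 3-prime minus 5-prime signal of the ACTB control probe sets was 1.68, against 0.63 to 0.89 on the other 7 arrays. For the GAPDH control probe sets it was 0.54 on treated replicate A, against 0.06 to 0.14 on the other 7. Of 6 genes listed as markers of mesenchymal, basal-like breast cancer cells 5 were high on every array, including vimentin (VIM, 13.55 to 13.81), and SPARC was low (2.92 to 3.21). Of 8 luminal markers 4 lay below the median of all genes. PGR and FOXA1 stayed at or below 3.34 on every array, whereas GATA3 (6.92 to 7.76), EPCAM (8.16 to 8.53), KRT18 and KRT19 (11.30 to 12.23) lay above it. All 6 markers of leukocytes and fibroblasts and 4 of 5 neural markers lay below the median of all genes; the exceptions among the other lists were MBP (log2 fold change -0.92, adjusted p = 0.126; 0.00167 with the letter as a block) and the endothelial PECAM1 (-0.43, adjusted p = 0.207; 0.0155 with the block). The luminal cadherin CDH1 moved with treatment, from a mean of 4.08 to 4.98 (limma adjusted p = 0.00579), and the neural SYT1 had -0.44 (adjusted p = 0.0308 with the block). The part of these marker genes in the results was not tested.

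TGFβ raised 1 guidance gene in the limma fit over all genes, SEMA7A. With the replicate letter as a block 7 of the 67 passed: SEMA7A, EPHA4 and PLXNA2 rose, and SEMA4D, NRP1, SEMA3A and EFNA5 fell. A gene is called here when its p, adjusted over all 19777 genes by Benjamini-Hochberg, is under 0.05. Without the block 1 of 67 was called, against 0.576% of all genes (0.354% higher). With it 7 of 67 (10.4%) were called, against 3.56% of all genes, 1.39% higher and 2.18% lower. Block fits without letter A, B, C or D called 10, 4, 5 and 6 members, against 6.59%, 1.46%, 1.62% and 1.8% of all genes. The fit without the block and without treated replicate A called 3, SEMA7A, SEMA4D and PLXNA4, against 1.17%. Among the 39 members in the upper 60% of signals 7 were called with the block, against 5.39% of all genes in that range, and none of the 28 below it. The block takes out what same-letter arrays share. Deviations from the group means correlated between same-letter arrays at 0.49 for A, 0.69 for B, 0.34 for C and 0.30 for D, but C and D also correlated across letters, at 0.33 (untreated C with treated D) and 0.31 (untreated D with treated C). The values single out the letter for A and B and do not tell C from D, and 6 of the 7 member calls depend on this pairing.

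The promoters of 4 of these genes are shown because they are the 3 genes that rose and, for contrast, SEMA4D, which had the smallest p among those that fell. Each is the RefSeq window on GRCh38.p14 from 250 bases before to 50 bases after the annotated start, written 5′ to 3′ along the gene. All 4 lie on the minus strand: SEMA7A at chr15:74433909-74434208, EPHA4 at chr2:221574153-221574452, PLXNA2 at chr1:208244335-208244634 and SEMA4D at chr9:89495607-89495906. For SEMA7A and EPHA4 the table holds 2 starts, and the upstream one is shown. Capitals mark the letters CAGAC on either strand, the core that SMAD proteins are known to bind.
SEMA7A: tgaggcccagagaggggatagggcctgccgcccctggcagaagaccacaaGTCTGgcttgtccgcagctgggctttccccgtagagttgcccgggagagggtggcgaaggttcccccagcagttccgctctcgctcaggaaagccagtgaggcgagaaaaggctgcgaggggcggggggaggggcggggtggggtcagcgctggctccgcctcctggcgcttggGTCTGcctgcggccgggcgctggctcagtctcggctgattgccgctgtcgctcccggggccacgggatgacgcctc
EPHA4: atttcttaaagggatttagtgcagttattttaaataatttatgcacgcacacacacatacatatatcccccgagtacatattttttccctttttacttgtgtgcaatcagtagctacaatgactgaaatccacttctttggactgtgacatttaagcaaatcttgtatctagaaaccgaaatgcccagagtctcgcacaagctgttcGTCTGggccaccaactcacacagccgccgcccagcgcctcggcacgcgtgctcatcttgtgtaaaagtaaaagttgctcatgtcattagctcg
PLXNA2: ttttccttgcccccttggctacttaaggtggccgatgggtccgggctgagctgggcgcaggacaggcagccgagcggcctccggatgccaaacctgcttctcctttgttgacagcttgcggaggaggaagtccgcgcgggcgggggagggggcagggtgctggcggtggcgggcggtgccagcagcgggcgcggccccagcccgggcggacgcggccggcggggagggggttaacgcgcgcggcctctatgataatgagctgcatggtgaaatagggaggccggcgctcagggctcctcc
SEMA4D: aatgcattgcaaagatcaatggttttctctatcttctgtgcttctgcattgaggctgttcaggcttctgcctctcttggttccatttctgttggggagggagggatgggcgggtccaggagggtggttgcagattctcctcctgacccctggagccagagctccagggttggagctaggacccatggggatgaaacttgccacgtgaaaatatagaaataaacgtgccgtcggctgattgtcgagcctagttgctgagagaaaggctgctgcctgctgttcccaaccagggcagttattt

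The SEMA7A window held CAGAC on either strand at 2 places, the EPHA4 window at 1, and those of PLXNA2 and SEMA4D at none. Of 27305 such windows, the first one listed for each gene in the RefSeq table, 45% hold these letters, and 21 of the 57 guidance genes with a window do. The letters GGCGC on either strand, another SMAD-bound core, occurred in the windows shown 2 times for SEMA7A, 1 time for EPHA4, 3 times for PLXNA2 and at no place for SEMA4D. They occur in 48.3% of all windows and in 41 of the 57. The downstream window of SEMA7A, not shown, held CAGAC at 2 places and GGCGC at 4. That of EPHA4 held CAGAC at 1 place and GGCGC at 2. The AP-1 letters TGANTCA occurred in none of the 4 and in 1 of the 57 (PLXNC1), against 7.76% of all windows. The complement of CAGAC and that of GGCGC can share a base, and such overlaps were counted for each. These matches describe the letters only and do not show a bound site. The EFNA5 window held no CAGAC and 5 places with GGCGC; NRP1 and SEMA3A are not in the table.

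SEMA7A (Entrez Gene 8482) encodes a semaphorin held at the membrane by a lipid anchor that signals through plexin C1 and integrins. Its signal was 7.77, 7.35, 7.24 and 7.31 in untreated replicates A to D and 8.75, 8.71, 8.46 and 8.58 in treated replicates A to D. The groups did not overlap, and the lowest treated array lay above the highest untreated one. Means were 7.42 ± 0.24 untreated and 8.63 ± 0.13 treated (SD over 4 arrays each), which is 2.31-fold higher (limma log2 fold change 1.21 ± 0.13 SE, adjusted p = 0.0021). Same-letter arrays differed by 0.98, 1.36, 1.23 and 1.27. SEMA7A passed in all 8 fits that left out 1 array, with adjusted p of at most 0.0156. Its other probe set, 210083_at, had a log2 fold change of 0.09 ± 0.13 SE (limma adjusted p = 0.934 over probe sets). The mean signals of 210083_at were lower, at 4.60 untreated and 4.685 treated, against 7.42 and 8.63 for 230345_at. The rise of SEMA7A therefore rests on 230345_at. PLXNC1, its plexin receptor, had a log2 fold change of -0.16 ± 0.11 SE and passed in neither fit (adjusted p = 0.495 with the block).

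**Figure D1:**
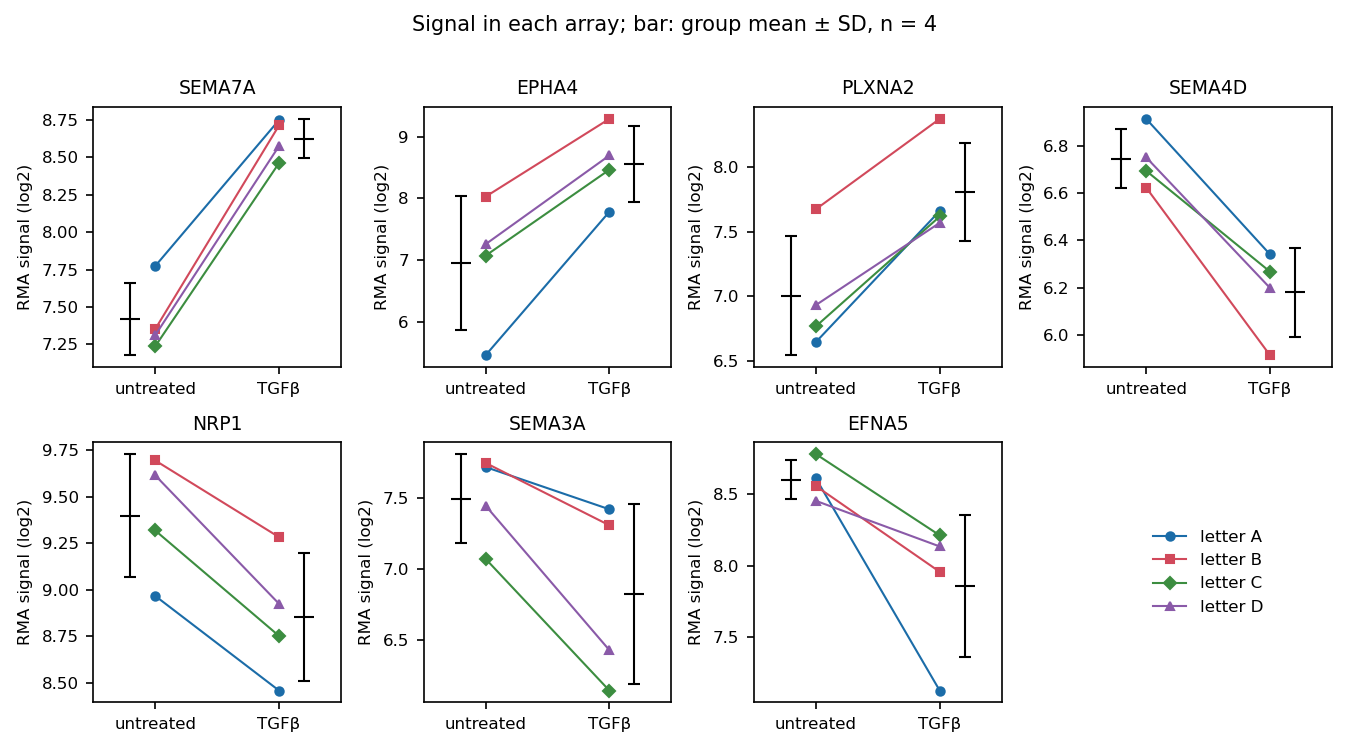
RMA signal (log2, y axis) of the 7 guidance genes called with the letter as a block, in untreated and TGFβ-treated arrays; each line joins the arrays of 1 letter and black bars give the mean ± SD of 4 arrays. All 4 lines run upward for SEMA7A, EPHA4 and PLXNA2 and downward for the other 4 genes, while for EPHA4 the lines start between 5.46 and 8.03.

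EPHA4 (2043), an Eph receptor tyrosine kinase that accepts ephrins of both the A and the B class, had the largest log2 fold change of the 67 genes. Untreated replicates A to D read 5.46, 8.03, 7.07 and 7.26, and treated replicates A to D read 7.78, 9.29, 8.46 and 8.69. The groups overlapped, because untreated B lay above treated A, but every treated array was above the untreated array of its letter. The means were 6.95 ± 1.08 and 8.56 ± 0.62 (SD, n = 4 in each group), a 3.04-fold difference that limma did not call without the block (1.60 ± 0.47 SE, adjusted p = 0.264). With the block it rose (1.60 ± 0.15 SE, adjusted p = 0.000303), and it passed whichever letter was left out of that fit. The pairs differed by 2.32, 1.26, 1.39 and 1.44. Of its 5 probe sets 4 had log2 fold changes from 1.30 to 1.80 and were called over probe sets with the block. The other, 238671_at, had -0.02 at an untreated mean signal of 3.04.

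PLXNA2 (5362) encodes a plexin that takes up class 3 semaphorins together with neuropilins. Its untreated signals were 6.65, 7.68, 6.77 and 6.93 and its treated signals 7.66, 8.38, 7.62 and 7.57 for A to D. Letter B was the highest in each group, and untreated B lay above treated A, C and D. The log2 fold change was 0.80 ± 0.24 SE without the block (1.74-fold, adjusted p = 0.267) and 0.80 ± 0.09 SE with it (adjusted p = 0.00084), with a rise in 4 of 4 pairs. It passed without any 1 of the 4 letters. Probe set 227032_at had 0.75 and was called with the block over probe sets (limma adjusted p = 0.0249). Probe set 207290_at had 0.09 at an untreated mean signal of 3.66.

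SEMA4D (10507), the transmembrane semaphorin that activates plexin B1 and is known for regulating lymphocytes and vessel growth, fell with the block. Untreated signals were 6.91, 6.62, 6.69 and 6.75, and treated signals 6.34, 5.91, 6.27 and 6.20 for A to D. All treated arrays lay below all untreated ones. The means were 6.75 ± 0.12 and 6.18 ± 0.19 (SD, n = 4 in each group), a log2 fold change of -0.57 ± 0.11 SE with adjusted p = 0.0657 without the block and 0.00498 with it. Without treated replicate A, the array with the 3-prime excess, it also passed without the block (-0.62, adjusted p = 0.0429). The block fit without letter B left it just outside (adjusted p = 0.0527). Its other probe set had -0.30 at an untreated mean signal of 4.35. It was called in neither limma fit over probe sets (adjusted p = 0.76 without the block and 0.467 with it). The receptor genes PLXNB1 and PLXNB2 had log2 fold changes of 0.07 and -0.06 and were not called in either fit.

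NRP1 (8829), the co-receptor that binds SEMA3A and also the vascular growth factor VEGF, fell with the block. Its signal was 8.97, 9.70, 9.32 and 9.62 untreated and 8.46, 9.28, 8.75 and 8.92 treated for A to D. The groups overlapped across letters, with letter A lowest and letter B highest in each group. All 4 pairs were lower after treatment, by log2 differences from -0.69 to -0.41. The log2 fold change was -0.55 ± 0.20 SE without the block (adjusted p = 0.428) and -0.55 ± 0.09 SE with it (adjusted p = 0.00639). It passed without any 1 of the 4 letters, with adjusted p of at most 0.0464. The other 3 probe sets of NRP1 had -0.21, -0.19 and 0.02 and were not called. Their untreated mean signals were 8.27, 3.23 and 2.81 in that order.

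SEMA3A (10371), the secreted ligand of NRP1 and A-type plexins that collapses growth cones, also fell with the block. Untreated signals were 7.71, 7.74, 7.07 and 7.44, and treated signals 7.42, 7.31, 6.15 and 6.43 for A to D. The pairs of letters A and B differed by -0.30 and -0.44, those of C and D by -0.92 and -1.01. The log2 fold change was -0.67 ± 0.28 SE without the block (adjusted p = 0.537) and -0.67 ± 0.12 SE with it (adjusted p = 0.0158). Of the 4 block fits without 1 letter only that without A kept the call (adjusted p = 0.00105; up to 0.11 in the others). A further probe set had -0.49 at an untreated mean signal of 5.82, and another 0.01 at 3.63. Neither was called in the limma fits over probe sets (adjusted p = 0.0673 and 0.976 with the block).

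EFNA5 (1946), a lipid-anchored ephrin that binds EphA receptors including EPHA4, fell with the block. Untreated signals were 8.61, 8.56, 8.78 and 8.46 and treated signals 7.12, 7.96, 8.21 and 8.13 for A to D. No treated array reached the lowest untreated one, and treated replicate A lay lowest. The log2 fold change was -0.75 ± 0.21 SE without the block (adjusted p = 0.225) and -0.75 ± 0.16 SE with it (adjusted p = 0.0311). Without treated replicate A it was -0.50 and not called without the block (adjusted p = 0.0866), and with the block and without letter A it was called (-0.50, adjusted p = 0.00986). The calls were lost in the block fits without B or without C (adjusted p up to 0.115). In the limma fit over probe sets with the block, 233814_at, which stands for the gene, was not called (adjusted p = 0.0644). Probe set 227955_s_at had -0.51 and was called there (adjusted p = 0.0373). The remaining probe sets had -0.32 and 0.04, at untreated mean signals of 7.08 and 4.27.

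**Figure D2:**
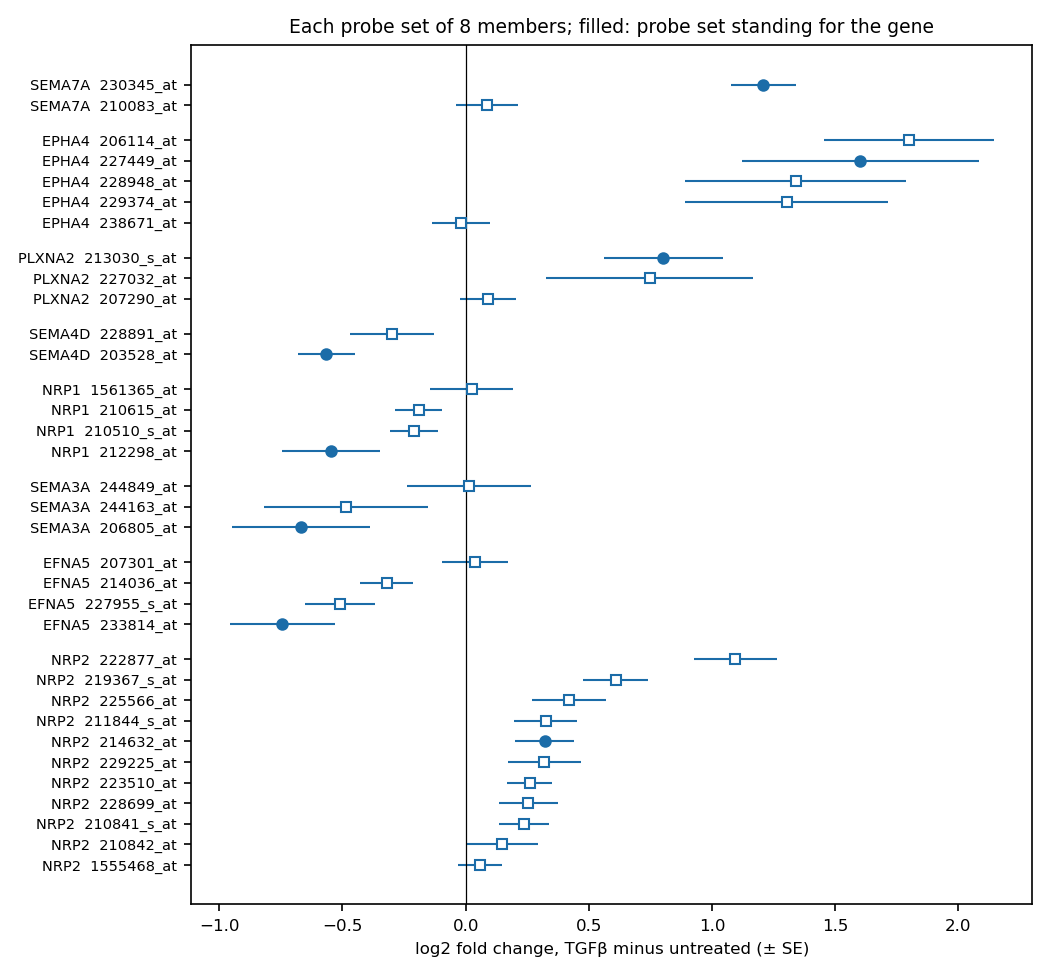
Log2 fold change (x axis, TGFβ minus untreated, ± SE of the limma fit without the block over 41091 probe sets) of every probe set of the 7 called genes and NRP2; filled circles mark the probe set that stands for the gene. Of 5 EPHA4 probe sets 4 lie between 1.30 and 1.80, the other SEMA7A probe set lies at 0.09, and all 11 NRP2 probe sets lie above 0.

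Over the 168 probe sets of the 67 genes, 2 were called without the block, against 0.343% of 41091 probe sets, and 13 with it, 9 higher and 4 lower, against 2.07%. EPHA4, PLXNA2 and NRP2 each gave more than 1 of the 13. Probe sets of the same gene are not independent, so these counts add no evidence apart from the gene counts. The second call without the block came from NRP2 (8828), the neuropilin that binds SEMA3F and lymphatic growth factors. All 11 probe sets of NRP2 had a positive log2 fold change. Probe set 222877_at went from 4.29 to 5.39 (1.10 ± 0.17 SE, adjusted p = 0.0302; 0.00168 with the block) and 219367_s_at had 0.61 (adjusted p = 0.0226 with the block). The probe set standing for the gene, 214632_at, read 5.52, 5.69, 5.68 and 5.19 untreated and 5.88, 5.76, 5.86 and 5.86 treated. Its treated arrays all lay above the untreated ones, with a log2 fold change of 0.32 ± 0.12 SE that passed in neither fit (adjusted p = 0.445 without the block and 0.158 with it).

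Of the 7 class 3 semaphorins, which are secreted, none was called without the block and SEMA3A was called with it. Their log2 fold changes ran from -0.67 to 0.25 with a median of 0.05. Of these genes 1 had an unadjusted p under 0.05 in the limma fit without the block, against 8.14% of all genes. SEMA3C, at the upper end, had 0.25 ± 0.17 SE (adjusted p = 0.81), with pair differences of 0.52 and 0.48 for letters A and B but 0.04 and -0.02 for C and D. SEMA3F, which signals through NRP2, had 0.05 ± 0.17 SE. Among the 13 other semaphorins, SEMA7A and SEMA4D stood at the ends and the other 11 lay within 0.3 of 0. SEMA4B and SEMA4C, transmembrane ligands of B-type plexins, had -0.19 and -0.12 (adjusted p = 0.866 and 0.836).

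Among 11 plexins and neuropilins 5 had an unadjusted p under 0.05 in the limma fit without the block, against 8.14% of all genes. None was called there, and PLXNA2 and NRP1 were called with the block, against 3.56% of all genes. PLXNA4, a receptor for SEMA3A and class 6 semaphorins, read 3.31 to 3.46 untreated and 3.37, 3.87, 4.14 and 3.80 in treated replicates A to D. Treated replicate A stayed among the untreated arrays. Its log2 fold change was 0.42 ± 0.15 SE (adjusted p = 0.397) and was called without treated replicate A (0.57, adjusted p = 0.0446), from signals near the low end of the array. PLXND1, the receptor of SEMA3E in vessels, had treated signals of 7.68 to 7.83 against 7.44 to 7.62 untreated, a log2 fold change of 0.22 ± 0.09 SE that was not called (adjusted p = 0.525). PLXNA1 had -0.26 ± 0.15 SE and was lower in 4 of 4 pairs (adjusted p = 0.75; 0.155 with the block). The median of the class was -0.06.

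The 8 ephrins had a median log2 fold change of -0.13, and 4 of the 5 A-type ephrins were negative. EFNA1, a ligand of EPHA2, read 7.31, 6.89, 7.01 and 7.08 untreated and 7.22, 6.36, 6.82 and 6.60 treated in the same order. It was lower in each pair, with a log2 fold change of -0.32 ± 0.17 SE that passed in neither fit (adjusted p = 0.724 without the block and 0.129 with it). It was called in the block fit without letter A (-0.40, adjusted p = 0.0367), which called 6.59% of all genes. In the block fits without B, C or D it was not called (adjusted p = 0.443, 0.216 and 0.47). EFNB2, the transmembrane ephrin of arterial vessels, had -0.09 ± 0.14 SE. Its receptor EPHB4 had -0.27 ± 0.12 SE and was lower in 4 of 4 pairs without being called (adjusted p = 0.639; 0.181 with the block).

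Besides EPHA4, 1 of the 9 EphA receptors had an unadjusted p under 0.05 in the limma fit without the block, where 8.14% of all genes did. This was EPHA7, which read 3.90, 5.03, 4.04 and 4.24 untreated and 3.83, 3.57, 3.70 and 3.88 treated. The groups did not overlap, but the log2 fold change of -0.55 ± 0.21 SE was not called (adjusted p = 0.479) and pair B alone differed by -1.46. It was called in the block fit without letter A (-0.72, adjusted p = 0.0234), which called 6.59% of all genes. In the block fits without B, C or D it was not called (adjusted p = 0.411, 0.286 and 0.248). EPHA2, the EphA receptor much studied in carcinoma, read 9.46 to 9.57 untreated and 9.41 to 9.60 treated, with a log2 fold change of -0.02 ± 0.08 SE. None of the 4 EphB receptors measured was called in either fit or had an unadjusted limma p under 0.05 without the block. With 3.56% of all genes called with the block and 8.14% at that p, this does not set so small a class apart. EPHB2 was not among the genes analysed. EPHB1 had 0.23 ± 0.15 SE, and EPHB3 0.03 ± 0.14 SE with treated replicate B at 5.46 against 6.02 to 6.08 on the other treated arrays.

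The 7 SLIT and ROBO genes and the 8 netrin and UNC5 genes gave no call in either fit, and none had an unadjusted limma p under 0.05 without the block. Over all genes 0.576% were called without the block, 3.56% with it, and 8.14% had such a p. No call among so few genes therefore does not set these classes apart. All 15 had a log2 fold change within 0.3 of 0. SLIT3 was higher on every treated array than on any untreated one, at 5.18 to 5.32 against 4.97 to 5.14 (0.19 ± 0.09 SE, adjusted p = 0.632). SLIT2 had -0.22 ± 0.13 SE, and its receptor ROBO1 -0.15 ± 0.12 SE. UNC5B, a netrin receptor, read 6.33 to 6.36 untreated and 6.38 to 6.49 treated, without overlap but with a log2 fold change of only 0.09 ± 0.08 SE (adjusted p = 0.873). NTN4, a netrin of basement membranes, had -0.16 ± 0.16 SE and was lower in 4 of 4 pairs (adjusted p = 0.896).

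**Figure D3:**
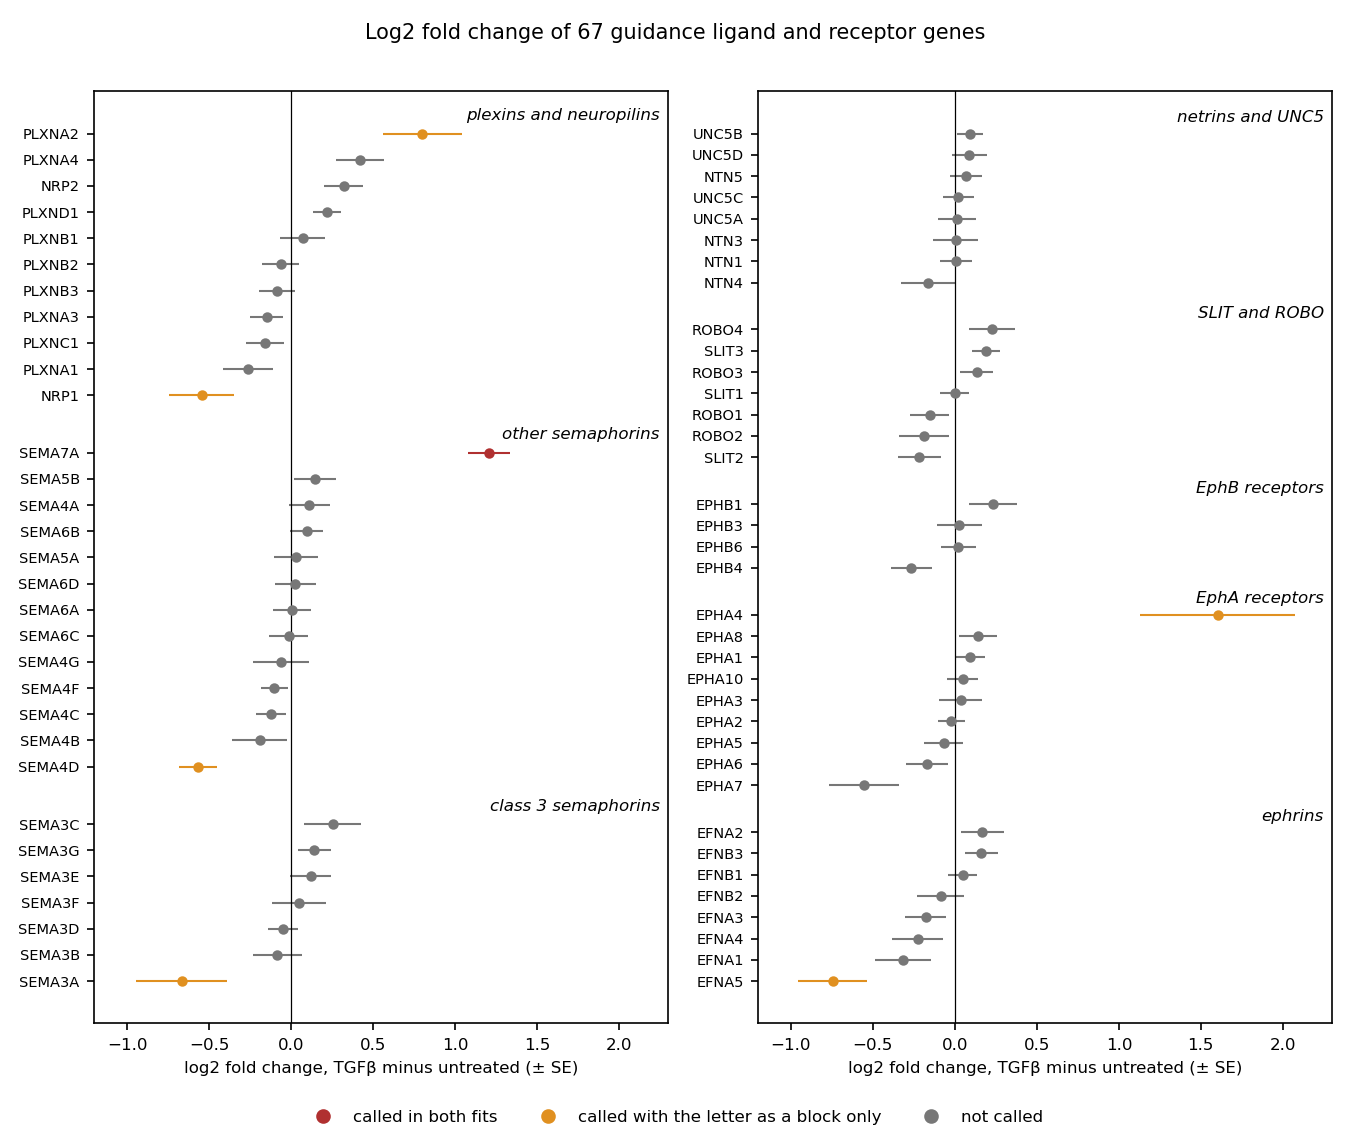
Log2 fold change (x axis, TGFβ minus untreated, ± SE without the block) of the 67 guidance genes by class; red marks the gene called in both limma fits, orange those called with the letter as a block only, grey those not called. SEMA7A and EPHA4 lie beyond 1, and 56 of the 67 genes lie within 0.3 of 0.

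The 67 genes did not move one way. In all, 37 log2 fold changes were positive and 30 negative, with a median of 0.01 against 0.01 over all genes, and 52.8% of all genes were positive. Centring the arrays or repeating quantile normalization changed the positive count to 40 or 34. A change of at least 1.5-fold was seen in 5 members, EPHA4, SEMA7A, PLXNA2, EFNA5 and SEMA3A, against 1.68% of all genes. The groups did not overlap for 8 members (11.9%, against 5.12% of all genes): SEMA7A, NRP2, PLXND1, SLIT3 and UNC5B higher and SEMA4D, EFNA5 and EPHA7 lower, where all genes gave 2.9% higher and 2.21% lower. All 4 pairs ran the same way in 26 members, 13 up and 13 down, against 22.4% of all genes, 11.7% up and 10.7% down. At an unadjusted p under 0.05 the limma fit without the block held 11 members, against 8.14% of all genes. The first gene outside the block calls was PLXNA4 (adjusted p = 0.0632), and the last inside was EFNA5 (0.0311).

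A further list of 77 symbols was examined, of which 73 were measured. This list was chosen with earlier results of these data known, so its counts describe it and do not test it against all genes. It holds 62 intracellular genes that carry guidance signals, of which 58 were measured, and 15 receptors, co-receptors and other guidance ligands. Without the block 3 of the 73 rose, TIAM2, RND1 and ABL1, all intracellular, against 0.576% of all genes. None fell and 70 were not called. With the block 4 rose and 1 fell, against 3.56%; SRGAP1 and TIAM1 were added. The 15 receptors, co-receptors and other guidance ligands, among them DCC and NEO1, gave no call in either fit. None of them had an unadjusted limma p under 0.05 without the block, against 8.14% of all genes. The median log2 fold change of the 73 was 0.01.

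TIAM2, an exchange factor that activates the GTPase RAC, went from 5.75, 6.15, 5.89 and 6.04 to 7.30, 7.59, 7.28 and 7.25 for A to D. The groups were separated by more than 1 log2 unit, with a log2 fold change of 1.40 ± 0.12 SE (2.64-fold, adjusted p = 0.000737), and it passed whichever array was left out. The result rests on probe set 222942_s_at. The other 2 probe sets had -0.22 and -0.02, at untreated mean signals of 5.70 and 3.86, against 5.96 for 222942_s_at. TIAM1, a related exchange factor that Eph receptors can engage, fell with the block: its log2 fold change was -0.39 ± 0.08 SE (adjusted p = 0.0267; 0.439 without it), and was lower in 4 of 4 pairs. It kept the call in 1 of the 4 block fits without 1 letter (adjusted p up to 0.16).

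RND1, a small GTPase that binds the intracellular part of plexins, read 5.94, 6.02, 6.25 and 6.25 untreated and 6.82, 7.37, 8.18 and 7.93 treated. It rose 2.74-fold (1.46 ± 0.25 SE, adjusted p = 0.0295), with treated replicate A lowest of its group. ABL1, a tyrosine kinase downstream of ROBO and Eph receptors, rose 1.59-fold, from 8.29 ± 0.10 to 8.96 ± 0.19 (SD, n = 4 in each group; 0.67 ± 0.11 SE, adjusted p = 0.0269). RND1 and ABL1 passed in 1 of the 8 fits without 1 array, that without treated replicate A, and otherwise had adjusted p up to 0.117 and 0.123. With the block they had adjusted p of 0.000392 and 0.00231 and passed without any 1 letter. SRGAP1, a GTPase-activating protein that binds ROBO receptors, had 0.41 ± 0.10 SE with the block (adjusted p = 0.0496; 0.809 without it), with all 6 of its probe sets positive, and lost the call without any 1 letter.

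**Figure D4:**
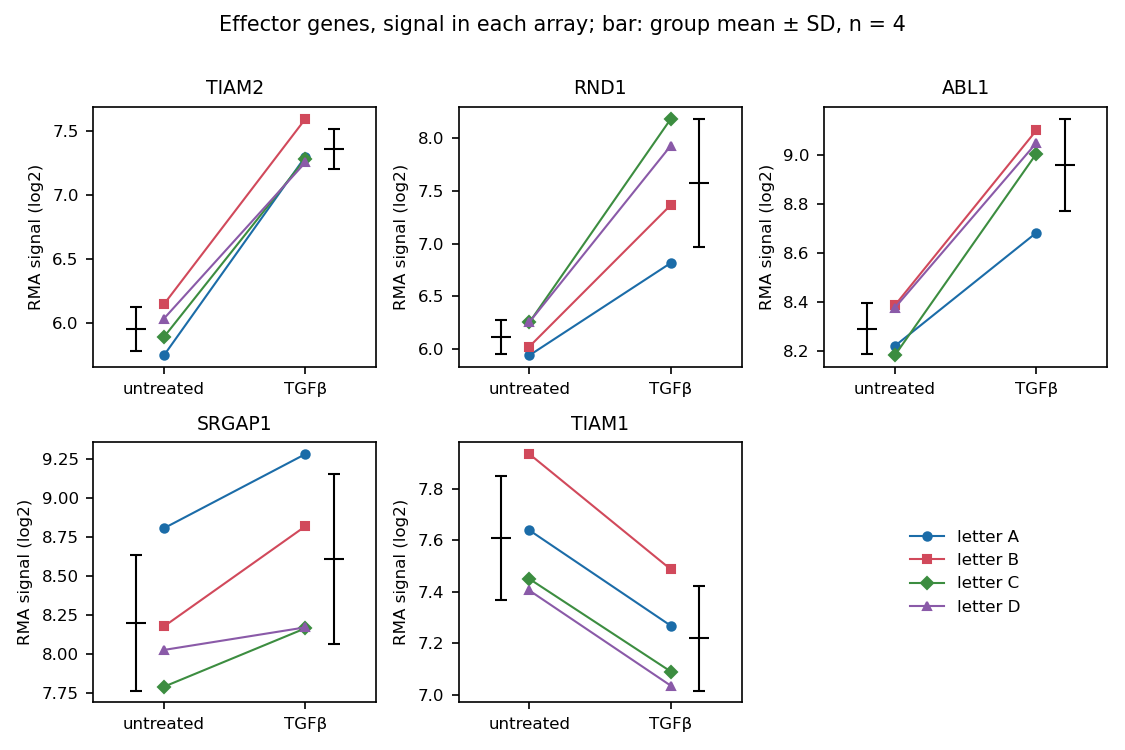
RMA signal (log2, y axis) of the 5 called effector genes in untreated and TGFβ-treated arrays; each line joins the arrays of 1 letter and black bars give the mean ± SD of 4 arrays. The groups are apart for TIAM2, RND1 and ABL1, whereas for SRGAP1 and TIAM1 they overlap and every line runs upward for SRGAP1 and downward for TIAM1.

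The values of known ligand and receptor partners are set side by side here. SEMA3A and NRP1 were each called lower with the block while PLXNA2 was called higher. With the block only, EFNA5 was called lower and EPHA4 higher. The EFNA5 call was lost in the block fits without letter B or without letter C. The B-class ephrin EFNB2 had -0.09 and was called in neither fit. SEMA7A was called higher in both fits while PLXNC1 was called in neither. SEMA4D was called lower with the block only, while PLXNB1 (0.07) and PLXNB2 (-0.06) were called in neither fit. These are transcript signals of the same arrays, and the partners were not tested against each other.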

How the data were processed

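Affymetrix arrays of 8 samples were analysed, 4 untreated and 4 treated with TGFβ, grouped by the labels. RNA was isolated with Trizol and labelled with biotin as cRNA, per the labels' protocols. The deposited log2 values come from RMA run by the authors (submitters' processing notes). Its version, and which arrays it took together, is not given in the sources used here; the log2 scale was inferred from the values. RMA gives no detection calls and understates changes of probe sets near background.

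Of 54675 probe sets 62 controls were left out; 41091 name 1 gene in the 2016 platform annotation, 1801 several and 11721 none. All 67 members matched a RefSeq identifier, and 1 further gene of these families, EPHB2, had no probe set naming it alone and was not analysed here. Groups were compared with limma 3.58.1 under R 4.3.3 (functions lmFit and eBayes, two-sided, Benjamini-Hochberg over 19777 genes or 41091 probe sets). The fit without the block is the main one, and that with the letter as a block is the alternative. Deviations of same-letter arrays correlated at 0.49, 0.69, 0.34 and 0.30. C and D correlated as much across letters (0.33 and 0.31), so the values do not tell these letters apart. The pairing comes from the data, as the labels do not explain the letters, and a replicate block fit is given beside results it changes. The fits were tested on simulated data.

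Genes named are those called in either fit, in each of 8 classes the 2 with the smallest p and the 2 with the highest signal, the 10 smallest p of all, and effectors called in either fit; others are given by class. PLXNC1, PLXNB1 and PLXNB2 were added as receptors of called ligands after values were seen. Members and lists were chosen with earlier results of these data known. Promoter windows are RefSeq's. Figures used matplotlib 3.10.9 in Python 3.11.15.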

Additional observations from a re-analysis of the deposited data

Results flagged for a closer look

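In 4 named genes 1 treated array stood apart from the other 3 of its group by Dixon's criterion, and in each it was treated replicate B. EPHB3 read 5.46 there against 6.02 to 6.08, NRP2 5.76 against 5.86 to 5.88, PLXNA2 8.38 against 7.57 to 7.66, and TIAM2 7.59 against 7.25 to 7.30. Chance marks about 1 in 20 groups, and 64 groups were examined. For PLXNA2 and TIAM2 untreated replicate B was also the highest of its group, at 7.68 and 6.15.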

How the results depend on the processing

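With the replicate block the count of called genes rose from 114 to 705 over all genes. Calls among the 67 guidance genes rose from 1 to 7, and those among the 73 other listed genes from 3 to 5. Leaving out 1 array gave 46 to 232 genes, 1 to 3 guidance genes and 1 to 3 effector genes. The extreme was treated replicate A, without which PLXNA4 and SEMA4D joined SEMA7A. The block fit without 1 letter, chosen after seeing the data, gave 1304, 288, 321 and 356 genes without A, B, C and D, 4 to 10 guidance genes and 3 to 6 effector genes, with most calls without letter A. SEMA7A, EPHA4, PLXNA2 and NRP1 were called in each of those 4 block fits. Without probe sets ending in _x_at or _s_at 1 effector gene was called. ABL1, whose only probe set is 202123_s_at, was not in that fit. TIAM2 turned to -0.22 there because its probe set was replaced. The other probe sets of TIAM2 had -0.22 and -0.021, and the mean of its 3 probe sets had 0.39 (limma adjusted p = 0.0731). SEMA7A kept its call with the upper 60% of signals, centring, renewed quantile normalization, a trended robust prior and the mean of its probe sets (0.65, adjusted p = 0.00812). The median of the 67 genes stayed within the spread between letters (SD 0.05) under every alternative run. RMA signals near background, as of PLXNA4 and EPHA7, limit what can be seen there.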

Other observations

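SEMA3A and SEMA3C, both secreted class 3 semaphorins, differed by letter. The treated minus untreated difference of SEMA3A was -0.30 and -0.44 for letters A and B and -0.92 and -1.01 for C and D, and that of SEMA3C was 0.52 and 0.48 for A and B and 0.04 and -0.02 for C and D. The difference between the letters was not tested. EPHA4 had the widest spread between untreated arrays of the called genes, with an SD of 1.08, and letter A, its lowest array in each group, also had the largest pair difference (2.32).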
